A study of Cynodon dactylon with 6 samples.

Results

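Among the abundant leaf transcripts of bermudagrass (Cynodon dactylon), a small set was within 1.5-fold of its unheated level after 2 h at 42 °C. After 12 h it stood at a moderately higher level. The set holds 70 of the 111743 unigenes of the deposited table, a unigene being a gene-level unit of an assembled transcriptome. Its members were chosen by their normalised counts, that is, by reads divided by a size factor per library (the median ratio to the geometric mean over 18038 unigenes with at least 10 reads in all 6 libraries). With C, E and L for the means of the control, 2 h and 12 h libraries, each plus 1, a member had C above 400, E within 1.5-fold of C on either side, and L at least 2 and under 8 times C. The choice therefore used all 3 groups, and the levels and ratios that follow are a description of the set and not a test of it.

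The samples were leaves of wild-type bermudagrass seedlings, 10 days old, all of 1 genotype class in the labels. Controls were taken at 0 h without heat, and heated seedlings after 2 h or after 12 h at 42 °C, with 2 libraries per group. The labels name no cultivar and leave unsaid if replicates are different plants or pools, so every spread given here is that between the libraries and may be technical. No unheated leaves sampled at 2 h or 12 h were analysed here, so the length of the heat and the time of sampling cannot be told apart.

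Plants meet a sudden rise in temperature with a fast programme in which heat shock factors switch on chaperone genes, while many transcripts for growth and photosynthesis decline. When heat lasts, the early chaperone transcripts usually recede and slower adjustments of metabolism, protein turnover and antioxidant defence take over. Bermudagrass is a warm-season, polyploid grass, and near-identical gene copies of a polyploid can end up in the same unigene or in several unigenes of a component, the assembly's cluster of related sequences. No table used here gives a name for a unigene ID, so no function can be given to any member, and the set is described by level, time course, transcript length and relation to other unigenes. Since the RNA came from whole leaves, a change in cell composition and a change in RNA per cell cannot be told apart.

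The libraries held between 6313500 and 9326725 assigned reads. The member values rest on ample reads: the lowest count of a member was 234 reads in any library and 267 in a control library. No replicate was a copy of the other: between them the chi-square of the counts, over unigenes with at least 20 reads, came to 3.90 to 7.98 per degree of freedom. Relative to the library totals the size factors stood at 0.881 and 0.874 for the controls, 0.864 and 0.928 for 2 h and 1.30 and 1.34 for 12 h, so a ratio of 12 h to control is smaller in normalised counts than in FPKM (reads scaled to transcript length and library total) or in shares of reads.

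A rise of this kind was uncommon among the abundant transcripts. Of 3735 unigenes with a control level above 400, 2330 were within 1.5-fold of control at 2 h. From these the members were 3.0%, while 1704 (73.1%) stayed within 2-fold at 12 h and 556 (23.9%) were at least 2-fold lower, and 0 were 8-fold higher or more. The median ratio of 12 h to control over the 2330 was 0.767, and over all 3735 it was 0.702. The count depends on the scaling: with library totals in place of size factors the same rule takes 204 unigenes, 56 of the 70 among them, and the median log2 ratio of the 3735 turns to 0.07, against -0.51 in normalised counts. A further 98 of the 2330 had ratios from 1.5 to under 2 and so lay below the limit. Of 168 abundant unigenes with a ratio of 2 to 8 at 12 h, the 70 members had moved by less than 1.5-fold at 2 h, 88 were at least 1.5-fold higher at 2 h and 10 at least 1.5-fold lower.

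**Figure D1:**
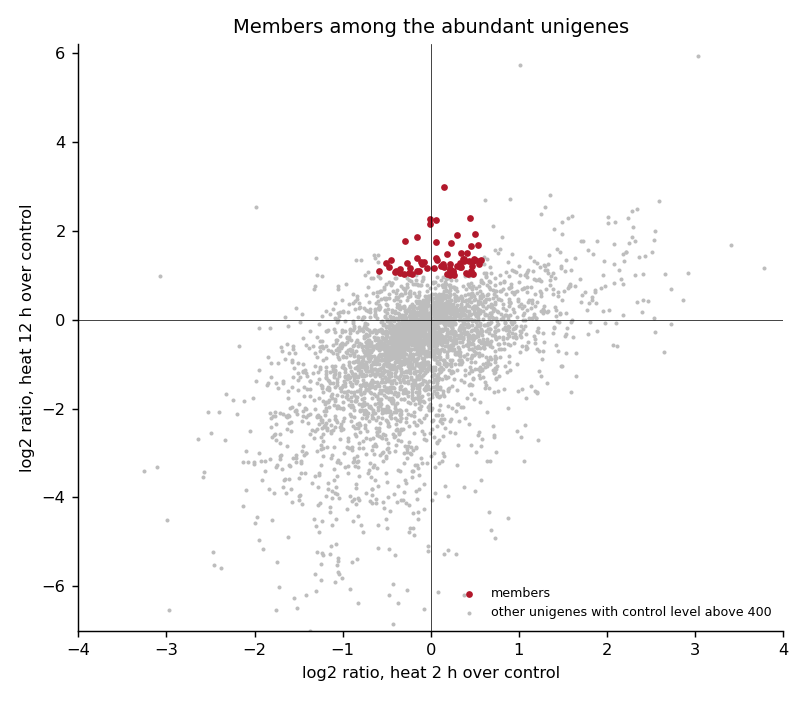
Log2 ratio of heat 12 h over control (vertical axis) against log2 ratio of heat 2 h over control (horizontal axis) for unigenes with a control level above 400, from group means of normalised counts; 10 of the 3735 lie outside the axes. The 70 members (red) form a band above a cloud whose median ratio at 12 h was 0.702.

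Most members stood not far above the limit of the rule. The ratio of 12 h to control had a median of 2.38 (quartiles 2.15 and 2.60), with 44 members from 2 to under 2.5, 13 from 2.5 to under 3, 8 from 3 to under 4 and 5 from 4 to 8. The highest ratio, 7.97, was far from the next, 4.88, so the upper limit of 8 parted no neighbours. At the lower limit the ratios just inside were 2.00 and 2.02 and those just outside 1.99 and 1.99. At the level limit of 400, control levels just inside were 401 and 407 and just outside 396 and 394. The 2 h ratios nearest to the upper limit were 1.49 and 1.46 inside against 1.52 and 1.52 outside, and nearest to the lower limit 0.667 and 0.704 inside against 0.663 and 0.659 outside.

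**Figure D2:**
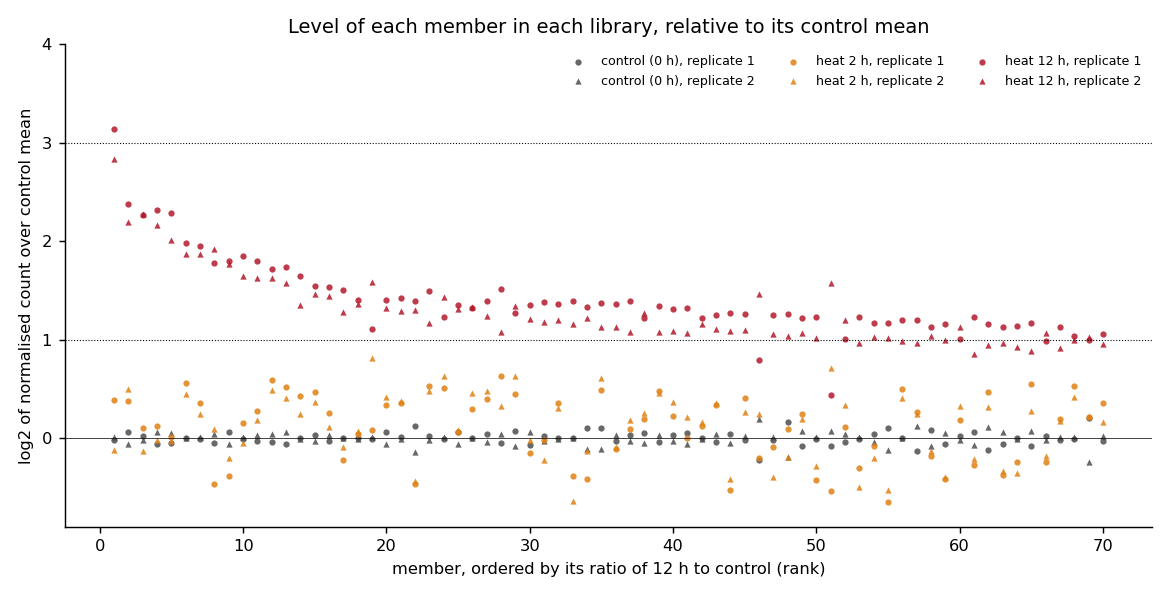
Log2 of the normalised count over the control mean (vertical axis) for each of the 70 members, ordered by their ratio of 12 h to control (horizontal axis), with circles for replicate 1 and triangles for replicate 2. In 69 of 70 members both 12 h libraries (red) lie above the other 4 libraries, and the 12 h circles mostly lie above the triangles; dotted lines mark 2-fold and 8-fold.

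As the choice of members entails, the set held more of the reads after 12 h than in the controls or after 2 h. Their summed normalised counts were 72487 ± 339 in controls, 83517 ± 2657 at 2 h and 201705 ± 16212 at 12 h (SD, n = 2 each), which makes the 12 h sum 2.78 times and the 2 h sum 1.15 times that of the controls. In shares of all reads they held 0.802% ± 0.000602 in controls, 0.943% ± 0.0175 at 2 h and 3.34% ± 0.198 at 12 h (SD, n = 2 each), a ratio of 4.17 between 12 h and control on that scale. The 10 members that were most abundant at 12 h carried 43.7% ± 0.492 of the summed normalised counts of the set in controls, 46.5% ± 2.45 at 2 h and 49.6% ± 1.56 at 12 h.

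Per transcript length the members spanned a wide range. Mean FPKM in the controls ran from 7.17 to 1614 with a median of 57.0, after 2 h from 8.63 to 1969 with a median of 61.1, and after 12 h from 23.3 to 6849 with a median of 219. The ratio of mean FPKM between 12 h and control had a median of 3.58 (quartiles 3.21 and 3.95) and a lowest value of 2.85. Members climbed the ranking of leaf transcripts by FPKM, which the choice of members also entails. Among the 100 highest stood 1 and 1 members in controls, 2 and 1 at 2 h and 11 and 11 at 12 h, and among the 1000 highest 19 and 18 in controls, 15 and 16 at 2 h and 53 and 54 at 12 h. Of the 10 members with the highest FPKM in the controls 9 were also among the 10 highest after 12 h, in a changed order: c79268_g1, for one, was at rank 2 of the set after 12 h, against rank 6 in the controls.

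Unigene c80690_g1 was the most abundant member per length at every time. Its FPKM values were 1618 and 1610 in controls, 2047 and 1892 at 2 h and 7384 and 6314 at 12 h. It stood at ranks 63 and 61 of all unigenes in controls, 48 and 48 at 2 h and 3 and 3 at 12 h. In normalised counts it had 4632 and 4604 in controls, 6225 and 5457 at 2 h and 14398 and 11799 at 12 h, so that each later pair lay above the earlier one without overlap. The log2 fold change fitted by edgeR was 1.47 ± 0.13 for 12 h against control and 0.34 ± 0.12 for 2 h against control (SE). At the threshold given below, edgeR called the change at 12 h but not the change at 2 h. The length implied by its count, FPKM and library total was short, at 318 bases, and is not the length of a sequence.

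Unigene c79268_g1 had the largest ratio of 12 h to control. Its normalised counts were 1772 and 1811 in controls, 2337 and 1653 at 2 h and 15748 and 12809 at 12 h. The 2 h libraries lay on either side of the controls, and both 12 h libraries were far above the rest. Per length it reached 2855 and 2409 FPKM after 12 h, against 249 and 255 FPKM in the controls. Its rank by FPKM was 370 and 368 in controls, 302 and 413 at 2 h and 7 and 7 at 12 h. The fitted log2 fold change was 2.97 ± 0.17 for 12 h against control and 2.81 ± 0.17 for 12 h against 2 h (SE, edgeR). The ratio of 7.97 lies just inside the upper limit of 8, and between mean FPKM values it was 10.4.

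The next members by ratio were chiefly changed at 12 h. The second, with 416 and 384 normalised counts in controls, had 519 and 566 at 2 h and 2075 and 1836 at 12 h, a ratio of 4.88. The third had 415 and 405 in controls, 439 and 374 at 2 h and 1980 and 1988 at 12 h, a ratio of 4.83 that came to 11.4 between mean FPKM values. Its length implied by count, FPKM and library total was shorter at 12 h than in the controls. Its 2 ratios therefore differ by more than the scaling of the libraries. The fourth, a more abundant transcript, had 1993 and 2170 in controls, 2272 and 2053 at 2 h and 10363 and 9335 at 12 h, a ratio of 4.73 that came to 7.10 between mean FPKM values. In all 3 the 12 h libraries were at least 3 times the highest of the other libraries, and only the second had both 2 h libraries above both controls.

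The member with the highest control level had 5283 and 5635 normalised counts in controls, 8428 and 6846 at 2 h and 15631 and 11504 at 12 h. This was a stepwise course in which neither pair overlapped the next, with a 2 h ratio of 1.40 close to the limit of the rule. A member at the median of the 12 h ratio had 575 and 496 in controls, 754 and 816 at 2 h and 1388 and 1169 at 12 h, again stepwise. A member at the lower quartile took the other course, with 1511 and 1538 in controls, 1236 and 1084 at 2 h and 3577 and 2969 at 12 h. Its 2 h libraries lay below both controls before the level at 12 h exceeded both groups.

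**Figure D3:**
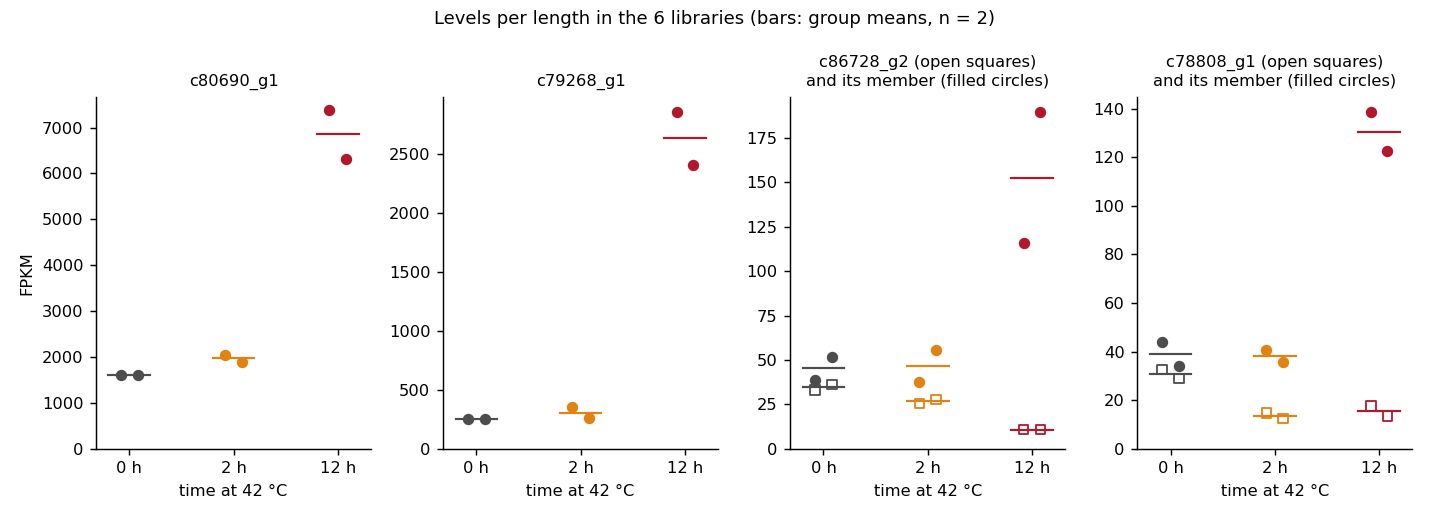
FPKM (vertical axes, each from 0) in the 6 libraries by hours at 42 °C, with bars for group means (n = 2). The first panels show the members c80690_g1 and c79268_g1, whose 12 h values lie at 6314 to 7384 and 2409 to 2855 FPKM; the last panels show the companions c86728_g2 and c78808_g1 (open squares), which were lower after 12 h than in control while the member of the same component (filled circles) was higher.

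Within the band of 1.5-fold that the rule allows at 2 h, members leaned upward. The rule used these values, and a control mean that came out low would raise the 2 h and the 12 h ratio together. The lean is therefore a description and not a test. The 2 h level was above control in 46 members and at or below it in 24, with a median ratio of 1.15 (quartiles 0.912 and 1.30), against a median of 0.933 over the 2330 abundant unigenes within that band. By library, both 2 h values lay above both controls in 39 members, against 29.5% of the 3735 abundant unigenes, and below both in 18, against 53.6% of them; in 13 members the libraries overlapped. These percentages are not alike in range, because many of the 3735 moved by more than 1.5-fold. The 39 members with raised 2 h values had a median 2 h ratio of 1.29, a median ratio of 12 h to 2 h of 1.84 and a median of 12 h to control of 2.43. The 18 with lowered 2 h values had a median 2 h ratio of 0.814, a median ratio of 12 h to 2 h of 2.79 and a median of 12 h to control of 2.17. The 13 with overlapping libraries had medians of 1.03, 2.64 and 2.52, and they include c79268_g1 and the members ranked 3, 4 and 5 by 12 h ratio. The ratios share their libraries, so they are given side by side and not related to each other.

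The test across all unigenes was read for the members without drawing support from it, because the rule used the same contrasts. At 12 h against control 69 of 70 members were called higher, against 27.6% of the 25828 unigenes tested (quasi-likelihood test of edgeR, p adjusted by Benjamini-Hochberg over all of them, threshold 0.05). At 12 h against 2 h 68 were called higher, against 22.9% of all. At 2 h against control 22 were called higher and 8 lower, against 14.3% higher and 14.4% lower of all, in all 42.9% of the members and 28.7% of all unigenes. The 25828 tested unigenes include many with far fewer reads than any member, so these shares do not compare transcripts of like abundance. Without either control library the share of members called lay below that of all unigenes. Without control replicate 1, 3 members (4.29%) were called at 2 h, against 15.1% of all, and without control replicate 2 10 members (14.3%), against 18.4%. Without 2 h replicate 1 or 2 h replicate 2 it was 19 members (27.1%) each time, against 19.3% and 17.9% of all. Counted by library, both 12 h values exceeded the other 4 in 69 members, against 13.0% of the 3735 abundant unigenes.

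A single member stood apart. A long transcript of 6812 implied bases, it had 417 and 465 normalised counts in controls, 303 and 723 at 2 h and 598 and 1314 at 12 h. At both heat times replicate 2 stood at more than 2 times replicate 1, so that the first 12 h library lay below the second 2 h library. Its mean ratio at 12 h, 2.16, rests on replicate 2, and edgeR called it in none of the 3 comparisons. A second member was not called between 12 h and 2 h, with 507 and 845 normalised counts after 2 h and 1031 and 1440 after 12 h, where replicate 2 was again the higher at both times.

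Over the whole set the median absolute difference between replicates, in log2 units, was 0.07 for controls, 0.11 for 2 h and 0.16 for 12 h. For all abundant unigenes it was 0.09, 0.13 and 0.13. The 12 h values compared between replicates here are those the rule used, so their direction is a description too. After 12 h, 57 of 70 members (81.4%) were higher in replicate 1 than in replicate 2, against 64.6% of the abundant unigenes. With libraries scaled to their totals these shares were 77.1% and 54.9%. In the controls 33 of 70 members (47.1%) were higher in replicate 1, against 49.3% of the abundant unigenes, and after 2 h also 33, against 65.6%. The summed normalised counts of the members were 213169 in the first and 190241 in the second 12 h library.

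A further reading of the rise came from libraries that entered a choice only through the size factors, which rest on all 6 libraries. When the rule was applied to the 3 libraries numbered 1 alone, it took 72 unigenes. In the libraries numbered 2 all 72 were higher at 12 h than in the control, with a median ratio of 2.22 (range 1.52 to 6.84), and 50 of them reached 2-fold (69.4%, 95% Wilson interval 58.0% to 78.9%). In the reverse direction the rule took 60 unigenes from the libraries numbered 2. In the libraries numbered 1 all 60 were higher, with a median of 2.55 (range 1.42 to 8.88), and 52 reached 2-fold (86.7%, 95% Wilson interval 75.8% to 93.1%). Of all abundant unigenes within 1.5-fold at 2 h in the choosing libraries, 2.97% and 3.73% reached 2-fold in the others, with median ratios of 0.765 and 0.780. These shares include the chosen unigenes, which make up 50 of the 68 and 52 of the 86 that reached it. The intervals treat unigenes as independent and cover counting of unigenes only, and the replicates may be technical. Each direction reads 1 library per group, so the intervals give no spread between libraries. In each direction 43 unigenes met both ratio limits again, and 64 of 72 and 50 of 60 kept within 1.5-fold at 2 h.

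**Figure D4:**
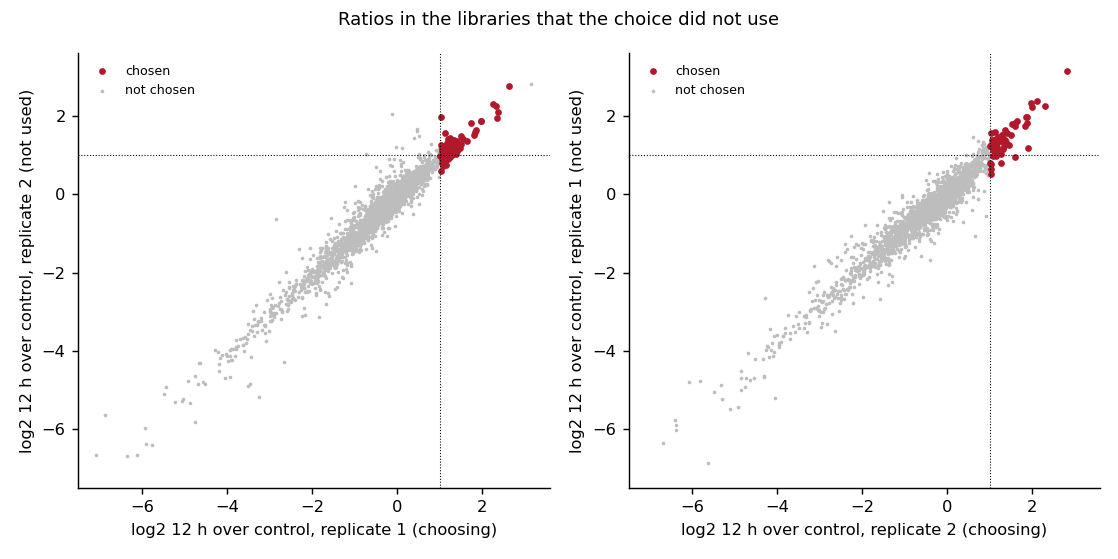
Log2 ratio of 12 h over control in the replicate that chose (horizontal axes) and in the replicate not used (vertical axes), for unigenes above a level of 400 in the choosing control and within 1.5-fold at its 2 h. Size factors came from all 6 libraries. Of the red points, chosen by the rule in 1 replicate, 50 of 72 (left) and 52 of 60 (right) lie above the horizontal dotted line at 2-fold in the other.

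Length was not part of the rule, although a limit on reads favours long transcripts. The implied lengths of the members had a median of 1435 bases (quartiles 833 and 2389), against 2002 bases for the 1704 abundant unigenes that stayed within 2-fold and 1454 bases for the 556 that were at least 2-fold lower. The set ran from 282 to 7993 bases, with 7 members under 500 bases and 5 over 5000. Implied lengths were mostly stable, with 97.1% of the values of members within 10% of the median over libraries. The exceptions include the members ranked 1, 2 and 3 by 12 h ratio. At 12 h the implied length was longer than in the controls for ranks 1 and 2 and shorter for rank 3. The implied lengths assume that the FPKM values were scaled to the totals of the deposited counts. They are not lengths of assembled sequences: over the 3735 abundant unigenes they ran down to 22.9 bases. How far they, and the FPKM values of short unigenes, depart from the assembled lengths was not tested. The medians of length are given without a test, and length and level are tied through the limit of 400.

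Of the members 27 of 70 (38.6%) had another unigene in their component, against 33.2% of the abundant unigenes. Decimal counts, as arise when a read is divided between unigenes, were found in 7 members (10.0%), against 2.95% of the abundant unigenes, and all 7 had another unigene in their component. The 70 members came from 69 components. The pair in 1 component differed in length, 282 and 5022 implied bases, and moved alike. The short one had 1497 and 1488 normalised counts in controls, 1907 and 1848 at 2 h and 3831 and 3424 at 12 h. The long one had 1738 and 1938 in controls, 2172 and 2100 at 2 h and 4280 and 3857 at 12 h, ratios of 2.43 and 2.21 at 12 h. Per length the short one stood at 2158 ± 102 FPKM and the long one at 134 ± 6.92 FPKM after 12 h (SD, n = 2).

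Companions, the non-member unigenes of components that hold a member, took varied courses. There were 33 in 25 components, of which 22 passed the abundance filter. Of these 22, 7 were at least 2-fold higher at 12 h than in control and 5 at most 1/2 of it, with a median ratio of 1.44. Among all 25828 tested unigenes 22.0% were at least 2-fold higher and 15.7% at most 1/2, with a median of 1.11. The test called 9 companions higher, 6 lower and 7 not, against 27.6% called higher and 24.4% called lower of all tested. The 7 at or above 2-fold had low counts, since of the companions with a control level above 100 none reached it. Counts are not scaled to length, and not all 7 were scarce per length. 1 of them, of 168 implied bases, had a mean FPKM of 57.8 in controls, beside 60.9 for its member. 1 companion with low counts, that of c79268_g1, came close to the member in ratio: it had 46.5 and 33.0 normalised counts in controls, 70.0 and 69.6 at 2 h and 370 and 269.9 at 12 h, a ratio of 7.86 beside 7.97. The companion of 168 implied bases was close as well, at 2.25 beside 2.04, and the rest of the 7 had higher ratios than their members. Some of these ratios rest on very few reads. 1 such companion had 8 and 0 reads in the control libraries and was not called by edgeR, and another had 7 and 2.

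Other companions went the opposite way. Unigene c86728_g2 fell to 83.7 and 81.5 normalised counts after 12 h, against 380 and 418 in the controls, a ratio of 0.209. The member of its component had 1002 and 1585 after 12 h, against 492 and 659 in the controls. Unigene c78808_g1 fell to 176 and 130.5 after 12 h, against 484 and 431 in the controls, a ratio of 0.337, while its member had 1588 and 1357 after 12 h, against 742 and 580 in the controls. Both were called lower by edgeR at the same threshold, and both were lower in FPKM too, at 10.8 ± 0.0424 after 12 h against 34.6 ± 2.20 in the controls for c86728_g2 and 15.5 ± 2.91 after 12 h against 30.8 ± 2.64 in the controls for c78808_g1 (SD, n = 2). Both companions carry decimal counts, and the part of divided reads in these values was not tested.

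In another component, member and companion were alike before and early in the heat. The member had 1282 and 1276 normalised counts in controls, 1881 and 1743 at 2 h and 5061 and 4659 at 12 h. The companion had 1122 and 1138 in controls, 1542 and 1544 at 2 h and 783 and 911 at 12 h. With implied lengths of 2143 and 2226 bases they started at similar levels and both 2 h values were above control in each, while the ratio of 12 h to control was 3.80 for the member and 0.750 for the companion. On the FPKM scale the companion stood at 63.3 ± 8.17 after 12 h against 56.2 ± 0.297 in the controls, so its direction depends on the scaling. In a further component, a member of 282 implied bases had a ratio of 2.36 beside a companion at 1.0. With the normalised counts of each component summed, 17 of the 25 components with a companion still reached 2-fold at 12 h and 8 did not, with a median of 2.09 and a lowest value of 1.32.

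**Figure D5:**
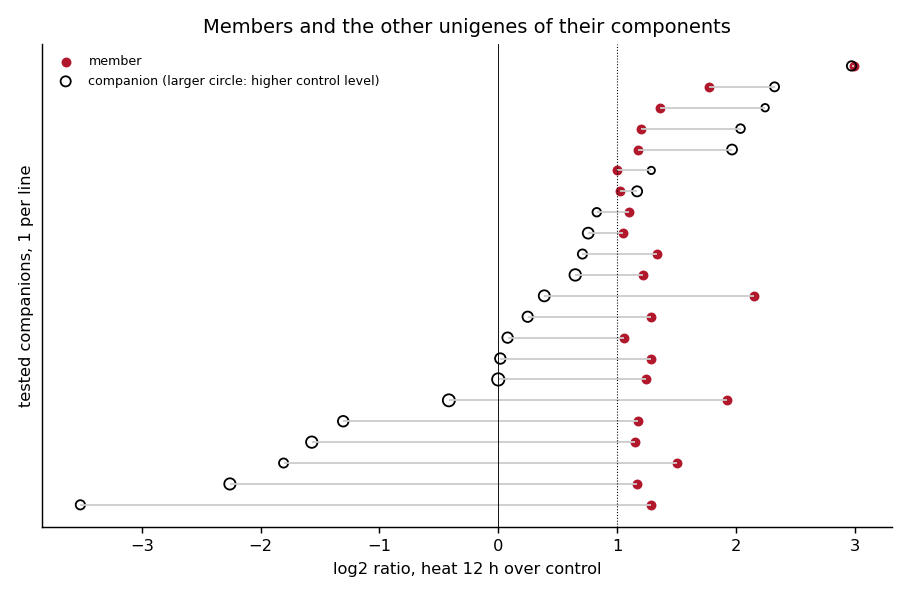
Log2 ratio of heat 12 h over control (horizontal axis) for the 22 tested companions (open circles, larger for a higher control level), each on a line with the member of its component (red); the dotted line marks 2-fold. The companions spread from 0.0873 to 7.86 in ratio, while the members lie at 2 or above by the rule.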

How the data were processed

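Leaf RNA of 6 libraries had been sequenced. The authors deposited estimated counts, reads per unigene without normalization between libraries (99.3% of values above 0 are whole), and FPKM values scaled to unigene length and library size. Named in the submitters' processing notes are DESeq 1.18.0, HTSeq 0.6.1, TopHat2 2.0.12 and Bowtie2 2.2.3, with no role; the sources used here give neither assembler nor build.

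Counts were divided by the size factors given with the rule. For tests, counts were rounded, unigenes were kept by filterByExpr (minimum count 10, minimum total 15; 25828 kept), scaled by TMM, and fitted to all 6 libraries by group with edgeR 4.0.16 (glmQLFit robust, glmQLFTest; R 4.3.3, 3 residual degrees of freedom; Benjamini-Hochberg threshold 0.05). On simulated data with known changes the fit recovered more of the 4-fold than of the 2-fold changes, and a larger share of its calls was false than the threshold names. Far fewer unigenes were changed in the simulation than were called in the data. Its share of false calls therefore does not carry over to these calls, and single calls remain uncertain. DESeq2 1.42.0, limma 3.58.1 on log2(FPKM + 1) and log2(FPKM + 0.1) for unigenes above 0 in at least 2 libraries, other scalings and left-out libraries were alternatives. The members and lists were chosen with earlier results of these data known. IDs named are the member highest in FPKM after 12 h, the member with the largest 12 h ratio, and the 2 lowest companions with a control level above 100 and a ratio below 1/2; other members stand by position in the set, and the exceptions and the components with a pair of members or matching or diverging companions were picked after their values were seen. Sequences of unigenes were not used here.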

Additional observations from a re-analysis of the deposited data

How the results depend on the processing

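The number of members depended on the scaling and the limits. In place of 70 it was 204 with library totals alone (56 shared), 176 with a control level above 200, 20 above 800, 168 with a lower fold limit of 1.5 and 13 with 3; TMM factors gave 63, all of them shared, and leaving out a library gave 63 to 79, with 58 to 67 shared. The rule applied to component sums, an alternative chosen after seeing the data, gave 69 components, which hold 62 of the members. The median log2 ratio of 12 h to control, 1.25 for the members, was 1.83 with library totals and 1.81 in FPKM, and 1.17 to 1.32 without a library; the same alternatives move the median of all abundant unigenes from -0.51 to 0.07 and 0.07. Members called at 2 h, 30 in all (42.9%, against 28.7% of all unigenes), were 15 with DESeq2 (21.4% against 20.4%), 6 and 7 with limma on log2(FPKM + 1) and log2(FPKM + 0.1) (8.57% against 6.0% and 10.0% against 8.07%), and 3 to 33 without a library (4.29% against 15.1% at the low end). Members called higher at 12 h were 67 to 69 under all 14 alternatives in each of the 2 comparisons, while the share of all unigenes called higher ran from 9.25% (no filter) to 52.5% (library totals) against control and from 7.49% to 48.2% against 2 h. The share chosen in replicate 1 that reached 2-fold in replicate 2 was 88.3% with library totals, and in the reverse direction 82.8%. Of all abundant unigenes within 1.5-fold at 2 h, the chosen included, 11.8% and 9.96% reached it. Of the tested companions, 11 in place of 7 reached 2-fold with library totals, and 0 of those with a control level above 100. Same-numbered libraries deviated together only between 2 h and 12 h (r = 0.29 across unigenes, against 0.01 and 0.04 with the controls), and no label pairs them; a replicate block called 69 members higher at 12 h than in control, 69 higher than at 2 h and 34 at 2 h, the last with 33.6% of all unigenes called against 28.7% without the block. Dixon's rule for outliers needs groups of 4 and was not applied to groups of 2.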
